A study of Mus musculus with 7 samples.

Results

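The genes described here are the receptors that sense extracellular protons and the machinery that turns such a signal into cyclic AMP (cAMP) and into gene expression. They were listed by name and function, with earlier results of these data known: 3 proton receptors, 4 receptors for prostaglandin E2 or adenosine that raise cAMP, 2 arrestins, 3 G protein alpha subunits, 5 adenylyl cyclases, 6 subunits of protein kinase A (PKA), 7 phosphodiesterases, 2 Epac proteins, 3 factors of the CREB family, 3 of their coactivators, 3 salt-inducible kinases and 3 cAMP-inducible feedback genes. These are 44 of the 53379 genes in the deposited count table. Of the 44, 42 had enough reads to be tested, among 16234 tested genes. The phosphodiesterase Pde2a and the Epac gene Rapgef4 were too low.

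RNA was measured in macrophages from MC38 tumours, grown from a mouse colon carcinoma line implanted into C57BL/6J mice on a high-fat diet, 21 days after implantation. The cells had been sorted as positive for CD45, CD11b and F4/80. One group was 4 mice with wild-type Gpr65 and the other was 3 Gpr65 knockout mice, and both groups carried the tumour and ate the high-fat diet. No source used here gives the age of the mice or says whether the deletion was in all cells or in a cell type. Each title names 1 mouse, so the spread below is that between mice.

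Gpr65 belongs to a small family of receptors whose histidines take up protons when the fluid outside the cell turns acid, as it does in tumours. In this pathway an active receptor switches on the G protein Gs, Gs drives adenylyl cyclase, and the cAMP that is made releases the catalytic subunits of PKA from their regulatory subunits and activates the Epac exchange factors. PKA phosphorylates CREB and, by acting on the salt-inducible kinases, lets the CRTC coactivators enter the nucleus, where CREB target genes are switched on. Phosphodiesterases, Gi proteins and arrestins limit the signal. In macrophages, cAMP is known to restrain inflammatory cytokines and to raise several of its own brakes.

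The libraries held 22449772 to 30483733 counts. Levels are given as CPM, counts per 1000000 counts of a library, adjusted by TMM, a correction for library makeup. Knockout 1 stood apart in breadth, with 940 of the tested genes at 0 against 51 to 281 in the other 6 libraries. It was the lowest library for 15 of the 42 tested genes described here. The share of all tested genes for which it was lowest is not given here, so the count is not particular to these genes. The sort markers Ptprc (CD45), Itgam (CD11b) and Adgre1 (F4/80) were present in every library, with a summed level of 1055 to 1650.4 CPM in wild-type and 1191 to 2458 CPM in knockout mice. The summed level of 8 monocyte markers was 3029 to 5622 CPM in wild-type and 652 to 1920.1 CPM in knockout mice, groups that did not overlap. The exact permutation p was 0.0286, the smallest that the 35 splits of 7 mice can give, and 0.51 after adjustment over 18 such measures. T cell markers summed to 500.2 CPM in knockout 3 and to 22.8 to 115 CPM in the other 6 libraries. Genes marking tissue dissociation summed to 9681 to 11378 CPM in wild-type and 10305 to 12371 CPM in knockout mice. How far these differences enter the values below was not tested, and in bulk RNA fewer cells of a type and less RNA per cell cannot be told apart.

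Per kilobase of exon, the pathway had clear leading genes at each step, shown in the plot of levels. In wild-type mice Gpr65 averaged 43.9 CPM per kb, against 11.8 for Gpr132 and 0.184 for Gpr4, so it was the most abundant of the 3 proton receptors. Ptger4 led the other Gs-coupled receptors at 12.4 CPM per kb, ahead of Adora2b at 7.23, Ptger2 at 1.95 and Adora2a at 1.29. Gnai2, an inhibitory alpha subunit, averaged 339 CPM per kb and Gnai3 averaged 32.7. Adcy7 averaged 43.2 CPM per kb, and the other 4 cyclases were each under 2. Prkar1a was the leading regulatory subunit at 113 CPM per kb. Pde4b led the phosphodiesterases at 32.5, Crtc2 the coactivators at 14.7, Atf1 the CREB factors at 14.7 and Sik1 the salt-inducible kinases at 29.7. Dusp1 was the highest of the 44 at 676 CPM per kb. Levels per kb rest on the union of annotated exons, which overstates the length of genes with many transcript forms.

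**Figure D1:**
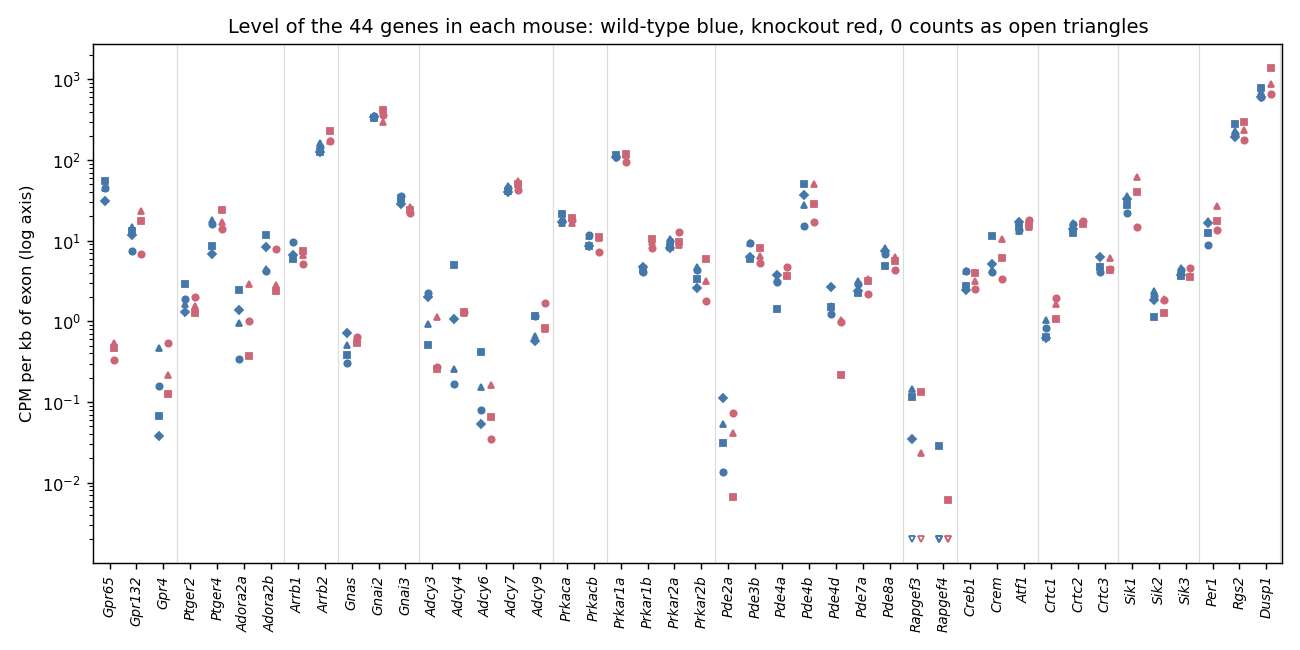
Level of each of the 44 genes in each mouse, as CPM per kilobase of exon on a log axis, in blue for wild-type and red for knockout mice; circles, squares, triangles and diamonds are mice 1 to 4, grey lines part the roles, and an open triangle at the bottom stands for a library with 0 counts. Gpr65 is the gene whose blue and red points lie far apart, and Dusp1, Gnai2, Rgs2, Arrb2 and Prkar1a are the 5 highest in wild-type mice.

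At an adjusted p under 0.05 in edgeR, 1 of the 42 tested genes differed between genotypes, and it was Gpr65 itself. Over all 16234 genes the share past that threshold was 0.037% (6 genes), with 0.0246% higher and 0.0123% lower in knockout mice. Of the other 41 genes, 21 had a positive and 20 a negative log2 fold change, with a median of 0.05, while over all genes the median was 0.00. An unadjusted p under 0.05 was found for 6 of 42: Arrb2, Prkar1b and Crtc1 with higher values in knockout mice, and Gpr65, Gnai3 and Pde4d with lower ones. Over all genes 5.37% had such a p, 2.57% higher and 2.79% lower. The same 6 were the genes whose wild-type and knockout mice did not overlap, against 6.12% of all genes, 2.80% higher and 3.33% lower. The share among the 42 was 14.3%, and Gpr65, the deleted gene, is 1 of the 6. Gnai3, Prkar1b and Crtc1 kept an unadjusted p under 0.05 in all 7 fits that left out 1 library. Those fits reuse the libraries by which the genes were picked, so they are not separate evidence. The share of all genes that would do so is not given here. No test was made of the share of 14.3%, and the genes were chosen with results of these data known.

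The data limit what can be said of the remaining genes to a range. The 95% interval of the log2 fold change included 0 for 36 of the 42 genes, and for 21 of the 42 it lay wholly between -1 and 1, as the plot of differences shows. A 2-fold difference in either direction lies outside the interval for those 21. Gpr65 lies wholly below that range, and the intervals of the other 20 genes reach a 2-fold difference in at least 1 direction. In simulated counts with the same group sizes, the test recovered 16 of 100 genes set to a 2-fold change and 58 of 100 set to a 4-fold change.

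**Figure D2:**
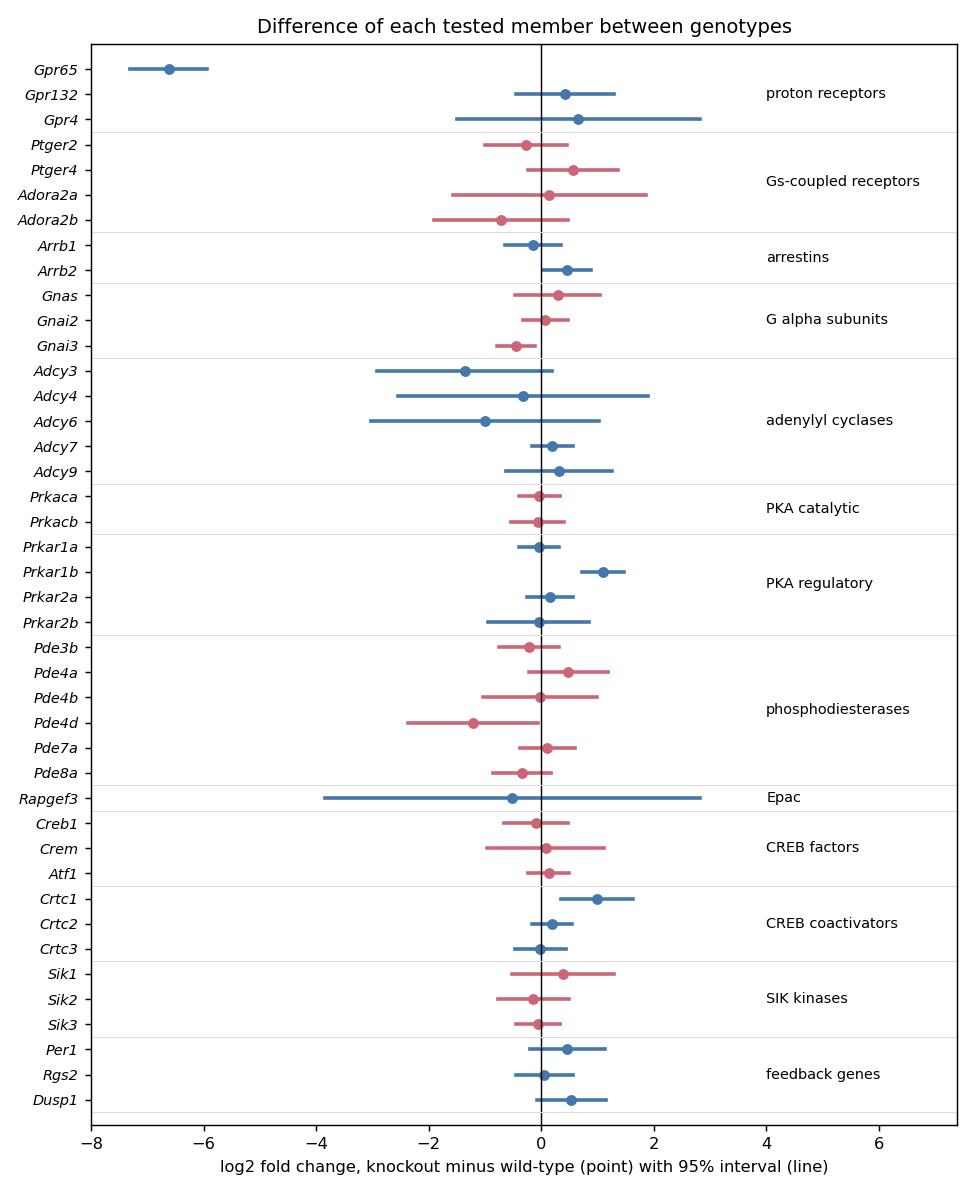
Log2 fold change of each of the 42 tested genes, knockout minus wild-type (point), with its 95% interval from edgeR (line), the colours alternating by role. Gpr65 lies at -6.62, and the intervals of 36 genes cross the line at 0.

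Gpr65, the proton receptor under study, measured 93.4, 112, 92.6 and 65.2 CPM in wild-type mice 1 to 4, against 0.683, 0.976 and 1.10 CPM in knockout mice 1 to 3. Every knockout library was at about 1 CPM and every wild-type library above 65 CPM. Gpr65 fell in the knockout mice, with means of 90.9 ± 19.4 CPM (SD, n = 4) and 0.921 ± 0.215 CPM (SD, n = 3), a log2 fold change of -6.62 (SE 0.30, edgeR adjusted p = 8.0e-05). This checked the genotype labels of all 7 libraries, and no other part of the labels. The gene lies at chr12:98268635-98276644 on the plus strand of GRCm38, and 24.7% of its exon bases overlap an antisense gene model that had 0 counts.

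Neither related receptor passed the test. Gpr132, known to respond to oxidised fatty acids, measured 20.3, 35.8, 39.9 and 32.0 CPM in wild-type mice, against 18.6, 48.0 and 62.7 CPM in knockout mice. Knockout 1 was the lowest of the 7 mice and the other two knockout mice were the highest, so the groups overlapped. The log2 fold change was 0.43 (SE 0.38, 95% interval -0.44 to 1.30), and 0.78 without knockout 1. Gpr4, best known from endothelial cells, had 131 counts in all, with values from 0.11 to 1.54 CPM. Its interval reached from -1.495 to 2.82, too wide to place it. Gpr132 made up most of the proton receptor RNA measured in knockout mice, where the share of Gpr65 among the 3 per kb was 2.24 to 4.28%, against 72.7 to 85.6% in wild-type mice.

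The other Gs-coupled receptors were present at low to moderate levels and none passed the test. Ptger4, the EP4 receptor for prostaglandin E2, measured 108, 56.7, 119 and 45.2 CPM in wild-type mice, against 93.0, 159 and 115 CPM in knockout mice. Wild-type mice 2 and 4 were low and knockout 2 was the highest, with the groups overlapping. The means were 82.3 ± 36.8 CPM (SD, n = 4) and 122 ± 33.5 CPM (SD, n = 3), with a log2 fold change of 0.57 (SE 0.35, 95% interval -0.23 to 1.37). Adora2b, the low-affinity adenosine receptor, measured 7.70, 21.9, 8.13 and 15.6 CPM in wild-type mice, against 14.7, 4.35 and 5.22 CPM in knockout mice. Knockout mice 2 and 3 were below all wild-type mice, and knockout 1 was among them. Its log2 fold change was -0.72 (SE 0.53). Ptger2, the EP2 receptor, ranged from 6.59 to 15.2 CPM over the 7 mice and Adora2a, the high-affinity adenosine receptor, from 1.04 to 8.82 CPM, with fitted differences of -0.27 and 0.14.

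Arrestins bind active receptors, end their coupling to G proteins and carry them inward. Arrb2, beta-arrestin 2, measured 412, 355, 466 and 358 CPM in wild-type mice, against 495, 662 and 485 CPM in knockout mice. All knockout mice were above all wild-type mice, by a narrow gap between wild-type 3 and knockout 3. The means were 398 ± 52.6 CPM (SD, n = 4) and 547 ± 99.6 CPM (SD, n = 3), and the log2 fold change of 0.46 (SE 0.19, unadjusted p = 0.036) did not pass the test (edgeR adjusted p = 0.92). With library size as the sole scaling, wild-type and knockout values of Arrb2 overlapped, and with 1 library left out Arrb2 kept an unadjusted p under 0.05 in 3 of 7 fits. Arrb1, beta-arrestin 1, ranged from 66.6 to 108 CPM in wild-type and 57.7 to 83.9 CPM in knockout mice, with a difference of -0.14 (SE 0.22).

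Among the alpha subunits, Gnai3, which carries inhibition from Gi-coupled receptors to adenylyl cyclase, measured 118, 109, 107 and 92.2 CPM in wild-type mice, against 71.9, 77.5 and 84.9 CPM in knockout mice. All 3 knockout mice were below all 4 wild-type mice. The means were 107 ± 10.9 CPM (SD, n = 4) and 78.1 ± 6.501 CPM (SD, n = 3), with a log2 fold change of -0.45 (SE 0.15, 95% interval -0.79 to -0.11, unadjusted p = 0.015), which did not pass the test (edgeR adjusted p = 0.81). Its more abundant relative Gnai2 had a mean of 1283 CPM in wild-type and 1352 CPM in knockout mice, with a difference of 0.08 (95% interval -0.32 to 0.48). Gnas, which encodes the stimulatory subunit itself, had 1125 counts in all and 3.45 to 8.004 CPM over the 7 mice. Its exons overlap 2 gene models on the other strand with 1 count each, no source used here names the counting program, and why the count of Gnas is low was not tested. The difference was 0.30 (SE 0.33).

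Adcy7 carried nearly all the adenylyl cyclase RNA. It measured 302, 275, 317 and 268 CPM in wild-type mice, against 288, 343 and 370.3 CPM in knockout mice. Knockout 1 lay among the wild-type mice and the other two knockout mice above them. The means were 291 ± 23.1 CPM (SD, n = 4) and 334 ± 41.8 CPM (SD, n = 3), a difference of 0.20 (SE 0.16, 95% interval -0.16 to 0.56). Per kb, Adcy7 made up 85.2 to 96.0% of the 5 cyclases in wild-type and 92.8 to 95.4% in knockout mice. Adcy3 was low and uneven, with 14.1, 3.16, 5.74 and 12.4 CPM in wild-type mice, against 1.71, 1.59 and 7.06 CPM in knockout mice. Knockout mice 1 and 2 were below all others, and its difference of -1.36 (SE 0.69, edgeR adjusted p = 0.98) had a 95% interval of -2.91 to 0.20. Of its exon bases, 22.1% overlap Cenpo on the other strand, a gene with more counts than Adcy3, and the part of Cenpo in the value was not tested. Adcy4 ranged from 0.790 to 23.2 CPM in wild-type mice, where wild-type 2 stood far above the rest, and from 5.88 to 6.06 CPM in knockout mice. Adcy6 had 176 counts in all, and Adcy9 ranged from 2.96 to 8.85 CPM.

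PKA holds catalytic and regulatory subunits, and neither catalytic gene passed the test. Prkaca, the alpha catalytic subunit, had means of 45.6 ± 5.76 CPM (SD, n = 4) and 44.5 ± 3.78 CPM (SD, n = 3), with a log2 fold change of -0.04 (SE 0.16, 95% interval -0.40 to 0.33). Prkacb, the beta catalytic subunit, ranged from 74.5 to 104 CPM in wild-type and 63.2 to 97.4 CPM in knockout mice, a difference of -0.06 (95% interval -0.54 to 0.41). For both genes the interval excludes a 2-fold difference.

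The regulatory subunits hold the catalytic subunits inactive until cAMP binds. Prkar1b, the type I beta subunit, best known from neurons, measured 15.6, 17.1, 16.1 and 17.9 CPM in wild-type mice, against 30.9, 39.8 and 36.4 CPM in knockout mice. The wild-type mice lay within 3 CPM of one another, and each knockout mouse was above all of them. The means were 16.7 ± 1.02 CPM (SD, n = 4) and 35.7 ± 4.51 CPM (SD, n = 3), and the log2 fold change was 1.10 (SE 0.16, 95% interval 0.73 to 1.47). Its unadjusted p of 9.4e-05 ranked 10 among 16234 genes, and it did not pass the adjusted threshold in edgeR (adjusted p = 0.15).

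The call for Prkar1b depended on the tool. DESeq2 gave an adjusted p of 2.2e-05, where 0.607% of its genes were called, and limma voom with library weights gave 0.028, where 0.0554% were called. With any 1 library left out, the edgeR adjusted p was 0.063 to 0.95 and the log2 fold change 1.01 to 1.18, so the size of the difference moved little. Prkar1b lies at chr5:139017306-139150001 on the minus strand of GRCm38, and 8.95% of its exon bases overlap a same-strand gene model with 46 counts against its own 4667.

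The other regulatory subunits had overlapping groups. Prkar1a measured 469.8, 505, 506 and 472 CPM in wild-type mice, against 413, 512 and 501 CPM in knockout mice, with knockout 1 the lowest. The difference was -0.04 (SE 0.16, 95% interval -0.39 to 0.32). Prkar2a, which type II PKA uses, differed by 0.16 (SE 0.18). Prkar2b had values from 6.46 to 21.7 CPM, both ends of which were knockout mice, and a difference of -0.04 (SE 0.40).

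As a share of the 4 regulatory subunits per kb, Prkar1b made up 3.23, 3.37, 3.08 and 3.77% in wild-type mice, against 6.86, 7.24 and 6.96% in knockout mice. Prkar1a made up 85.6, 87.8, 85.7 and 87.6% in wild-type mice, against 80.9, 82.0 and 84.3% in knockout mice. The knockout mice were thus all above the wild-type mice in the first share and all below them in the second, and Prkar1a stayed the main subunit in each mouse. Both shares are taken of the same total, so a rise of Prkar1b by itself lowers the share of Prkar1a. The level of Prkar1a itself had overlapping groups, with a log2 fold change of -0.04. The ratio of regulatory to catalytic subunit RNA per kb was 4.59 ± 0.296 (SD, n = 4) and 4.83 ± 0.186 (SD, n = 3), with overlapping groups. These shares are descriptions of RNA, made after the gene's values were seen, and carry no test.

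**Figure D3:**
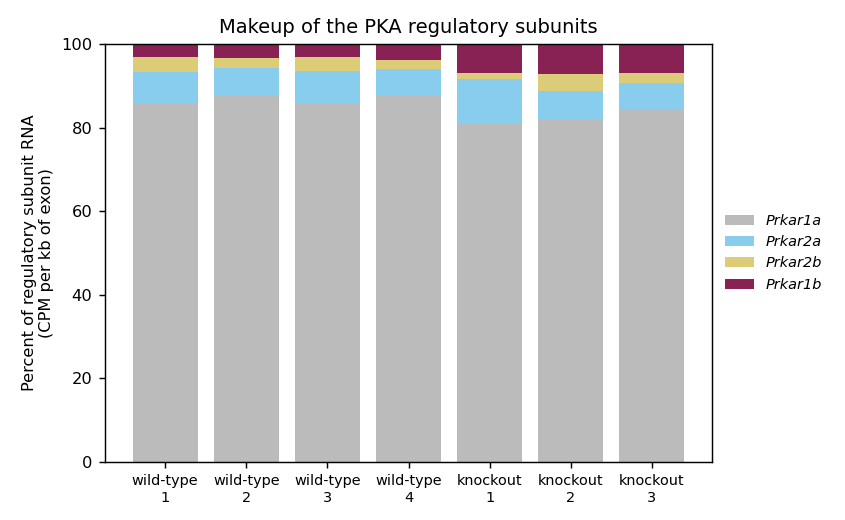
Makeup of the PKA regulatory subunit RNA in each mouse, in percent of the summed CPM per kilobase of exon of the 4 genes. The dark top segment, Prkar1b, spans 3.08 to 3.77% in the 4 wild-type mice and 6.86 to 7.24% in the 3 knockout mice.

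Phosphodiesterases break cAMP down. Pde4d, a cAMP-specific enzyme, measured 14.9, 17.9, 18.6 and 32.4 CPM in wild-type mice, against 11.96, 2.60 and 12.5 CPM in knockout mice. The knockout mice were all below the wild-type mice, with a gap of about 2 CPM between wild-type 1 and knockout 3 and a far lower value in knockout 2. The means were 21.0 ± 7.78 CPM (SD, n = 4) and 9.03 ± 5.57 CPM (SD, n = 3), and the log2 fold change of -1.21 (SE 0.51, 95% interval -2.37 to -0.05, unadjusted p = 0.042) did not pass the test (edgeR adjusted p = 0.92). With 1 library left out, Pde4d kept an unadjusted p under 0.05 in 3 of 7 fits, and it did not without knockout 2.

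Pde4b, the most abundant phosphodiesterase and one that cAMP itself is known to induce, measured 159, 535, 289 and 391 CPM in wild-type mice, against 180.3, 297 and 537 CPM in knockout mice. Mice of both genotypes covered the same range, and the difference was -0.02 (SE 0.45, 95% interval -1.04 to 0.99). Per kb it made up 39.1 to 76.0% of the 7 phosphodiesterases in wild-type and 49.1 to 70.8% in knockout mice. Pde4a, the third member of the type 4 family here, measured 10.8 to 28.9 CPM in wild-type and 28.0 to 36.7 CPM in knockout mice, a difference of 0.48 (SE 0.31). Pde3b, which cGMP inhibits, differed by -0.21 (SE 0.23). The high-affinity enzymes Pde7a and Pde8a differed by 0.11 (SE 0.22) and -0.34 (SE 0.23). Pde2a, which cGMP stimulates, had 57 counts over the 7 libraries, and 64.3% of its exon bases are shared with another gene model on the same strand.

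The Epac proteins, cAMP-activated exchange factors for the small G protein Rap, were at or near 0. Rapgef3 (Epac1) had 78 counts in all, measuring 0, 0.733, 0.929 and 0.219 CPM in wild-type mice, against 0, 0.854 and 0.147 CPM in knockout mice. Rapgef4 (Epac2) had 6 counts in all. At these depths no difference between genotypes could be seen for either gene.

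The CREB factors bind cAMP response elements. Creb1 ranged from 34.0 to 58.0 CPM in wild-type and 35.02 to 54.1 CPM in knockout mice, a difference of -0.09 (SE 0.25), and Atf1 differed by 0.13 (SE 0.16, 95% interval -0.23 to 0.50). Crem, whose internal promoter makes the cAMP-inducible repressor ICER, measured 23.9, 67.6, 25.7 and 30.7 CPM in wild-type mice, against 19.6, 35.6 and 62.2 CPM in knockout mice. Wild-type 2 and knockout 3 were high and the other 5 mice low, so genotype did not order the values. Counts per gene do not separate ICER from full-length Crem, and 8.01% of its exon bases overlap a gene model on the other strand.

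Of the CREB coactivators, Crtc1 measured 9.19, 7.25, 11.6 and 6.98 CPM in wild-type mice, against 21.9, 12.1 and 18.3 CPM in knockout mice. The knockout mice were all above the wild-type mice, knockout 2 by less than 1 CPM. The means were 8.77 ± 2.16 CPM (SD, n = 4) and 17.5 ± 4.96 CPM (SD, n = 3), and the log2 fold change of 0.99 (SE 0.28, 95% interval 0.35 to 1.63, unadjusted p = 0.0066) did not pass the test (edgeR adjusted p = 0.74). Crtc1 was the least abundant of the 3 coactivators per kb, at 0.784 CPM per kb in wild-type and 1.56 in knockout mice. The most abundant, Crtc2, measured 65.1, 50.7, 68.6 and 56.5 CPM in wild-type mice, against 72.5, 65.7 and 69.4 CPM in knockout mice, a difference of 0.20 (95% interval -0.16 to 0.56). Crtc3 differed by -0.02 (SE 0.20).

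**Figure D4:**
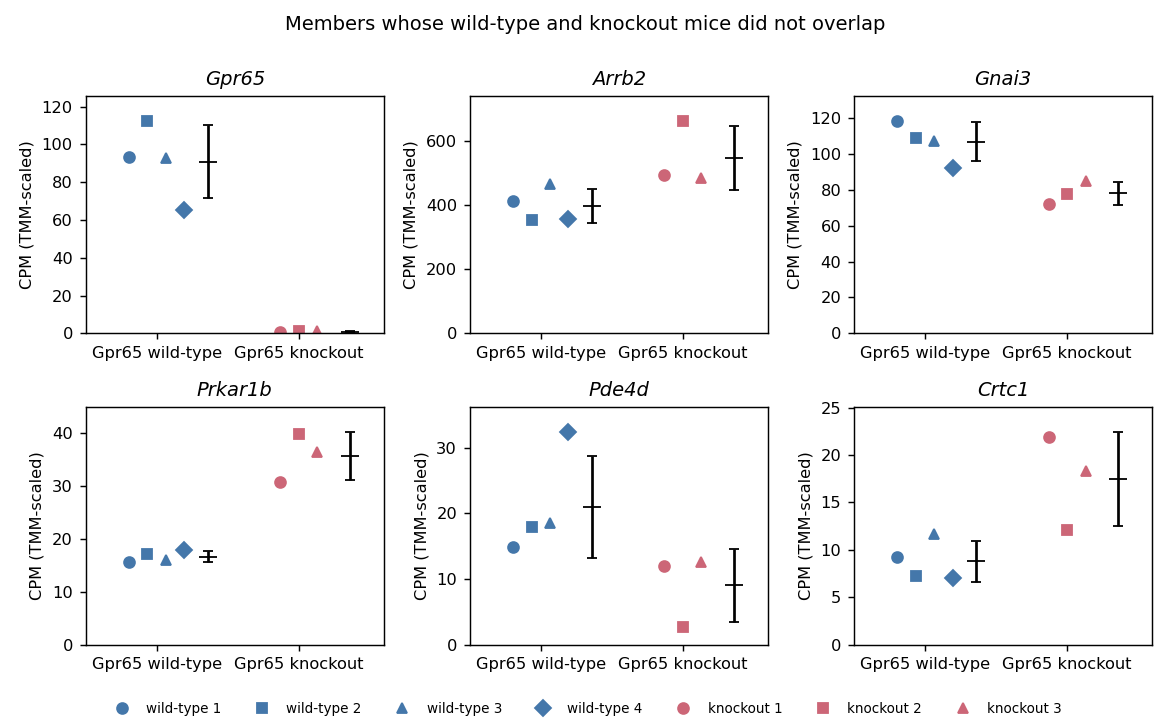
CPM in each mouse for the 6 genes whose wild-type (blue) and knockout (red) mice did not overlap, with the group mean and SD as a bar on axes that start at 0. In the panels for Arrb2, Gnai3, Pde4d and Crtc1 the nearest points of the groups lie close together, and for Gpr65 and Prkar1b the groups are well apart.

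Salt-inducible kinases keep the CRTC proteins in the cytoplasm until PKA acts on them, and Sik1 is itself a CREB target. Sik1 measured 115, 143, 183 and 169.7 CPM in wild-type mice, against 75.8, 203 and 316 CPM in knockout mice. Knockout 1 was the lowest mouse and the other two knockout mice the highest, and the log2 fold change was 0.38 (SE 0.40, 95% interval -0.53 to 1.29). Sik2 and Sik3 differed by -0.14 (SE 0.28) and -0.06 (SE 0.17), with overlapping groups. Sik2 shares 15.0% of its exon bases with Ppp2r1b on the other strand, which had 9295 counts against 3206.

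The 3 feedback genes are known CREB targets whose RNA rises when cAMP rises in many cells. Their promoters are shown next because the cAMP response element, a palindrome with the letters TGACGTCA, or its half-site TGACG, which reads CGTCA on the other strand, is the sequence through which CREB factors act. RefSeq promoter sequences of GRCm38.p6, from 250 bases before to 50 after each start, were found for 34 of the 44 genes. The full element, read on both strands, was in the promoters of 2 of the 34 (5.88%), Prkar1a and Dusp1, against 2.03% of 27025 genes. The half-site, which the full element also contains, was in 21 of the 34 (61.8%) against 23.0% of all genes. The 34 have more annotated starts per gene. Counted by promoter, the half-site was in 26 of 63 (41.3%) against 20.8% of all 32851, and the full element in 3 of 63 (4.76%) against 1.79%. Windows of nearby starts overlap, so 1 site can be counted more than once, as the full element of Prkar1a is. Both forms hold the letters CG, and the 34 were not matched to all genes by base makeup or expression. No test was made of these shares. In the stretches below, each 30 bases long and read 5′ to 3′ on the gene's strand, the capitals mark the element or the half-site. They lie at chr17:26508597-26508626 on the minus strand for Dusp1, chr11:109650889-109650918 on the plus strand for Prkar1a, chr11:69100008-69100037 on the plus strand for Per1, chr1:144004199-144004228 on the minus strand for Rgs2 and chr5:139150033-139150062 on the minus strand for Prkar1b.
Dusp1: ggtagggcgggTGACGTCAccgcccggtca
Prkar1a: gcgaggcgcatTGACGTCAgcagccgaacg
Per1: gagctcagcggcTGACGtcggtttccctgg
Rgs2: ttggggcgtggcTGACGcctccaggtcccg
Prkar1b: tagagggcggagTGACGggcaggaggacga

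The full element begins 143 bases before the start of Dusp1 and 49 bases before 1 of the 6 annotated starts of Prkar1a, where the overlapping window of another start also holds it. The half-sites begin 132 bases before a start of Per1, 67 before that of Rgs2 and 49 before 1 of the starts of Prkar1b. The Gpr65 promoter held neither form. A match describes letters only and a missing match says nothing about CREB, since no binding was measured here.

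Dusp1, a phosphatase that ends MAP kinase signalling, measured 2004, 2613, 2338 and 1999.6 CPM in wild-type mice, against 2196, 4649.5 and 2870.1 CPM in knockout mice. Knockout 2 was far above the others, knockout 3 was above all wild-type mice, and knockout 1 lay among them. The means were 2239 ± 296 CPM (SD, n = 4) and 3239 ± 1267 CPM (SD, n = 3), and the log2 fold change was 0.53 (SE 0.27, 95% interval -0.08 to 1.14, edgeR adjusted p = 0.98). Per1, a clock gene, measured 49.8, 69.9, 99.6 and 93.3 CPM in wild-type mice, against 75.5, 98 and 150.4 CPM in knockout mice. Knockout 3 was the highest and the rest were mixed, with a difference of 0.47 (SE 0.30, 95% interval -0.20 to 1.14).

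Rgs2, which speeds the shut-off of G proteins, measured 772, 1005, 826 and 693 CPM in wild-type mice, against 636, 1075 and 855 CPM in knockout mice. Knockout mice gave both the lowest and the highest value, and the difference was 0.05 (SE 0.22, 95% interval -0.46 to 0.56). Thus none of the 3 feedback genes, nor Sik1, Crem or Pde4b, had a lower mean in knockout mice beyond the spread between mice. Of these 6 genes, the 1 with a negative log2 fold change was Pde4b, at -0.02.

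**Figure D5:**
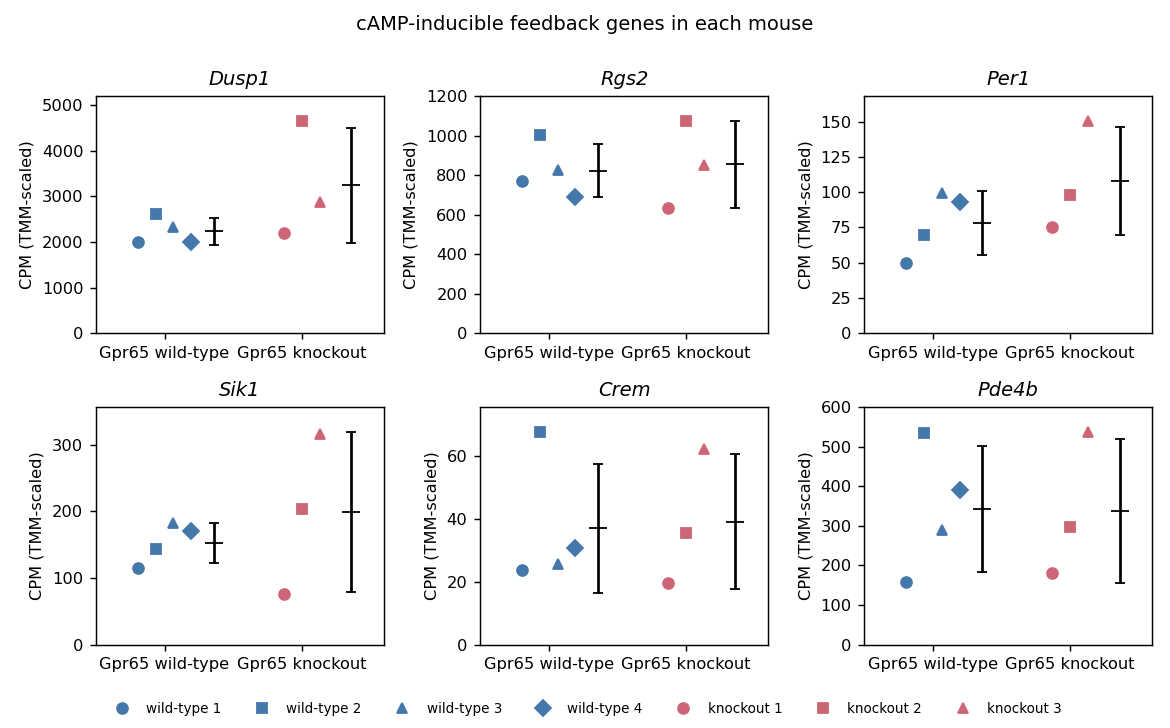
CPM in each mouse for 6 cAMP-inducible genes, wild-type in blue and knockout in red, with the group mean and SD as a bar on axes that start at 0. The groups overlap in every panel, and the SD of knockout mice is 1267 CPM for Dusp1 against 296 CPM in wild-type mice.

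The knockout mice differed among themselves in several of these genes. Without knockout 1, the 11 genes with no overlap were the 6 above and Gpr132, Adora2b, Adcy7, Sik1 and Dusp1, against 19.7% of all genes under the same change, and the genes with an unadjusted edgeR p under 0.05 were 10 of 42, against 9.8% of all genes. Gpr65 was still the 1 gene past the adjusted threshold. Wild-type mice were also uneven. Wild-type mice 1 and 3 were both above mice 2 and 4 in 15 of the 42 genes (35.7%), Ptger4, Prkacb, Creb1 and Pde3b among them, and both below in 7 (16.7%), among them Pde4b, Crem and Adora2b. Over all tested genes these shares were 27.0% and 26.1%.

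Outside the 44, 136 further genes of the pathway were listed by function, of which 108 were tested and none passed the adjusted threshold in edgeR. Of the 108, 60 had a positive and 48 a negative log2 fold change, with a median of 0.05. An unadjusted p under 0.05 was found for 3 higher and 3 lower ones, 5.56% of the 108, near the 5.37% of all genes. The 2 of them with the largest fold changes are given as values only. Ptgir, the Gs-coupled prostacyclin receptor, measured 1.16, 6.95, 1.53 and 8.33 CPM in wild-type mice, against 0, 0.203 and 0.515 CPM in knockout mice. All knockout mice were below all wild-type mice, at levels near 0, with a log2 fold change of -4.21 (SE 1.17, edgeR adjusted p = 0.74). Adrb1, the beta-1 adrenergic receptor, measured 0.125, 0.656, 1.39 and 0 CPM in wild-type mice, against 1.54, 3.66 and 5.40 CPM in knockout mice, without overlap but again near 0.

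Among 26 tested CREB target genes other than those above, 14 had a positive and 12 a negative fold change, with a median of 0.01, and none passed the adjusted threshold. Cited2, which binds the coactivators CBP and p300, had the smallest p of them. It measured 148, 116, 161 and 136 CPM in wild-type mice, against 180.7, 225 and 183 CPM in knockout mice, with no overlap and a log2 fold change of 0.49 (SE 0.17, unadjusted p = 0.018, edgeR adjusted p = 0.82). The immediate early gene Fos was the most abundant, at 4942 ± 179 CPM (SD, n = 4) and 5375 ± 945 CPM (SD, n = 3), a difference of 0.12 (SE 0.20). Fos is also among the genes marking tissue dissociation that were summed above. RefSeq promoters were found for 20 of the 27 CREB target genes listed, among them Ppargc1a, which was too low to be tested. Full elements were in the promoters of 2 of the 20 (10%), Btg2 and Areg, against 2.03% of all genes. Half-sites were in 16 of the 20 (80%), against 23.0% of all genes. No test was made of these shares. Btg2 averaged 1040 CPM in wild-type and 607 CPM in knockout mice, a difference of -0.78 (SE 0.38). Areg averaged 4.84 CPM in wild-type and 2.54 CPM in knockout mice, a difference of -0.93 (SE 0.66). The groups overlapped for each. Among the 12 negative values were also Arg1 at -1.70, Thbs1 at -0.65 and Egr1 at -0.64. Among the 14 positive ones were Il10 at 0.87, Fosb at 0.55 and Nr4a3 at 0.52.

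Of 13 tested kinase-anchoring and PKA inhibitor genes, 3 had a positive and 10 a negative value, with a median of -0.04. Akap7, an anchor of PKA, ranged from 7.86 to 34.2 CPM in wild-type mice, where mice 2 and 4 were high, and from 7.08 to 8.79 CPM in knockout mice (log2 fold change -1.23, edgeR adjusted p = 0.92). A list around Rap, on which Epac acts, had as tested genes Rap1a, Rap1b, Rap2a, Rap2b, Rap1gap2, Rapgef1 and Rapgef2. Not all of these act downstream of Epac. All 7, Rap1b the most abundant, had positive values with a median of 0.21, and none had an unadjusted p under 0.05. Over all genes, 8076 of 16234 had a positive value. Each of the other 5 adenylyl cyclases, Adcy1, Adcy2, Adcy5, Adcy8 and Adcy10, had 28 counts or fewer in all.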

How the data were processed

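The authors deposited a table of raw read counts per gene, whole numbers that had not been scaled. Tools named in the submitters' processing notes, without role or order, are BWA 0.7.12, cutadapt 1.15, DESeq2 1.24.0 and FastQC 0.11.5, and the genome build is GRCm38. Per the labels' protocols, libraries were made with a SMART-seq kit. No source used here names the counting program or says whether it used strand, so genes that overlap on opposite strands cannot be told apart.

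Genes were named by identifier from GENCODE M21 (53274 of 53379 matched), which also gave exon lengths. All 16234 genes left by edgeR's default filter were fitted together with edgeR 4.0.16 under R 4.3.3 (TMM, quasi-likelihood F test, robust, genotype as the single term, Benjamini-Hochberg adjustment, threshold 0.05). SE is the log2 fold change divided by the square root of F. On simulated counts for these 16234 genes, 7 of 81 calls were false.

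Alternatives were other scaling, other filters, DESeq2 1.42.0, limma 3.58.1 voom, edgeR without robust estimation, a block for mouse number, and each library left out. Chi-square comparisons found no library to be a repeat of another. Full values were given for Gpr65, genes with an unadjusted p under 0.05, the leading gene of each role and genes near 0, and from each further list for the 2 highest genes or those with an unadjusted p under 0.05, not all of which are printed; the results of some of these are not reported here. The genes and lists were chosen with earlier results of these data known.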

Additional observations from a re-analysis of the deposited data

Results flagged for a closer look

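Among the 42 tested genes, 2 had 1 wild-type mouse far from the other 3, by the gap to its nearest neighbour divided by the whole range. Arrb1 in wild-type 1 was 108 CPM against 66.6 to 73.6 CPM in the other wild-type mice, a ratio of 0.832. Crem in wild-type 2 was 67.6 CPM against 23.9 to 30.7 CPM, a ratio of 0.843. The 95% critical value for 4 samples is 0.829, and chance gives about 1 such case in 20 sets.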

How the results depend on the processing

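Gpr65 was lower in knockout mice and past the threshold under each alternative run. Genes called among the 42 were 2 with DESeq2 and 2 with limma voom (Gpr65 and Prkar1b) and 1 under each other setting. Over all genes the calls were 6, against 11 with no filter on low counts, 120 with DESeq2 and 3 to 14 with 1 library left out (3 without knockout 2, 14 without knockout 1). Genes without overlap were 6 (6.12% of all genes), and 6 to 11 with 1 library left out, where the share of all genes was 8.69 to 19.7%, both highest without knockout 1. The mouse numbers do not pair the mice in the labels, and same-numbered mice had deviations that correlated at 0.066, 0.051 and 0.088. Wild-type and knockout mice with different numbers had correlations from -0.19 to 0.095. With the replicate block 1 gene was called among the 42 and 1 over all genes.

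Of 668 fold changes of single genes under an alternative, 612 kept their direction and side of the threshold, 2 (Prkar1b with DESeq2 and with voom) passed it newly, and 54, in 21 genes, changed sign without being past the threshold in either fit; the cause was not tested. Log2 fold changes that changed sign with library size alone were Gnai2 -0.044, Pde7a -0.031, Crem -0.016 and Rgs2 -0.083, a scaling that moves the median of all genes by -0.11. With voom they were Adcy4 1.77, Prkaca 0.011, Prkar1a 0.024, Prkar2a -0.051, Pde4b 0.55, Rapgef3 0.10 and Crtc3 0.12. With the replicate block they were Adcy4 1.25, Pde4b 0.080, Crtc3 0.10 and Rgs2 -0.044. With 1 library left out, the ranges that crossed 0 were Gpr4 -0.10 to 1.73, Adora2a -0.89 to 0.67, Arrb1 -0.28 to 0.022, Gnai2 -0.045 to 0.19, Adcy4 -0.74 to 1.36, Adcy9 -0.15 to 0.50, Prkaca -0.10 to 0.058, Prkacb -0.17 to 0.10, Prkar1a -0.10 to 0.038, Prkar2a -0.033 to 0.26, Prkar2b -0.60 to 0.27, Pde4b -0.52 to 0.28, Pde7a -0.011 to 0.26, Rapgef3 -2.63 to 0.043, Creb1 -0.26 to 0.044, Crem -0.42 to 0.55, Crtc3 -0.19 to 0.10, Sik1 -0.12 to 0.76, Sik2 -0.31 to 0.017, Sik3 -0.20 to 0.016 and Rgs2 -0.15 to 0.21.

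With 4 and 3 mice and a common biological coefficient of variation of 42.9%, small differences in single genes cannot be seen, and a p that misses the threshold does not show that genotypes were alike. Genes with few counts, Gpr4, Adcy6, Rapgef3, Rapgef4 and Pde2a, carry little information at this depth.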
